A study of Mus musculus with 2 samples.

Results

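The genes described here encode the basement membrane under the corneal epithelium, the hemidesmosomes that fasten basal cells to it and the Fraser complex that adds to the same attachment. They were taken by gene symbol, with no threshold on their values, from a list of 38 laminin, collagen, nidogen, proteoglycan, hemidesmosome and Fraser complex genes. Of these, 37 had a row of their own among 30698 named genes, and 34 passed the low-signal filter that left 19512 genes in all. Lama2, Lama4 and Frem1 did not pass it, and the row of Col7a1, the collagen of anchoring fibrils, also carries Mir711 and was not counted.

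The samples were corneal epithelium of C57BL/6 mice of both sexes at an age of 8 weeks. The injured sample came from eyes whose epithelium had been scraped off at full thickness up to the limbal border about 48 hours earlier, using a rust ring remover of 0.5 mm, and 10% of the wound had yet to close at collection. The uninjured sample was the epithelium of the fellow, unwounded eyes of these mice. Each group is 1 array, and the labels do not say how many mice were pooled for it. The authors deposited log2 intensities, which run from 2.54 to 14.1 and have a median of 5.44 for the injured and 5.43 for the uninjured array. A single array a group gives no replicate spread. No test was therefore run, and a gene is called higher or lower only when the arrays lie at least 2-fold apart. The corneal keratin Krt12 read 10.85 in the injured array and 14.07 in the uninjured one, and the basal keratin Krt5 read 13.69 and 13.85 in the same order, so both arrays carry epithelial RNA. In bulk RNA fewer cells of a type and less RNA per cell cannot be told apart.

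A basement membrane is a sheet in which a laminin network and a type IV collagen network are joined by nidogens and heparan sulfate proteoglycans. Basal keratinocytes hold it through hemidesmosomes, where plakins tie keratin filaments to a laminin-binding integrin and to a transmembrane collagen, and anchoring fibrils reach from there into the stroma. After a corneal scrape the basal cells let go of these contacts, slide over the bared surface and later build them again. The Fraser complex is a set of very large extracellular proteins on the epithelial side of the membrane, and its loss makes the skin of mouse embryos blister.

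The 2 large Fraser complex genes were far lower in the injured epithelium, while most structural genes of the membrane lay within 2-fold of the uninjured eye. Of the 34 measured genes, 0 were at least 2-fold higher, where 4.14% of all genes were, and 3 were at least 2-fold lower, where 3.92% of all genes were. In both directions together these 3 are 8.82% of the 34 genes, and 8.06% of all genes lay 2-fold apart. The 3 were Frem2, Fras1 and the laminin chain gene Lamb1. The share 2-fold apart in both directions is thus near the background. The differences of Frem2 and Fras1 were larger than any other among the 34. The median difference, injured minus uninjured, was 0.0036 on the log2 scale over the 34 genes and 0.058 over all genes. Of the 34, 17 differences were positive, 16 negative, and Lamc3 had the same value in both arrays.

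**Figure D1:**
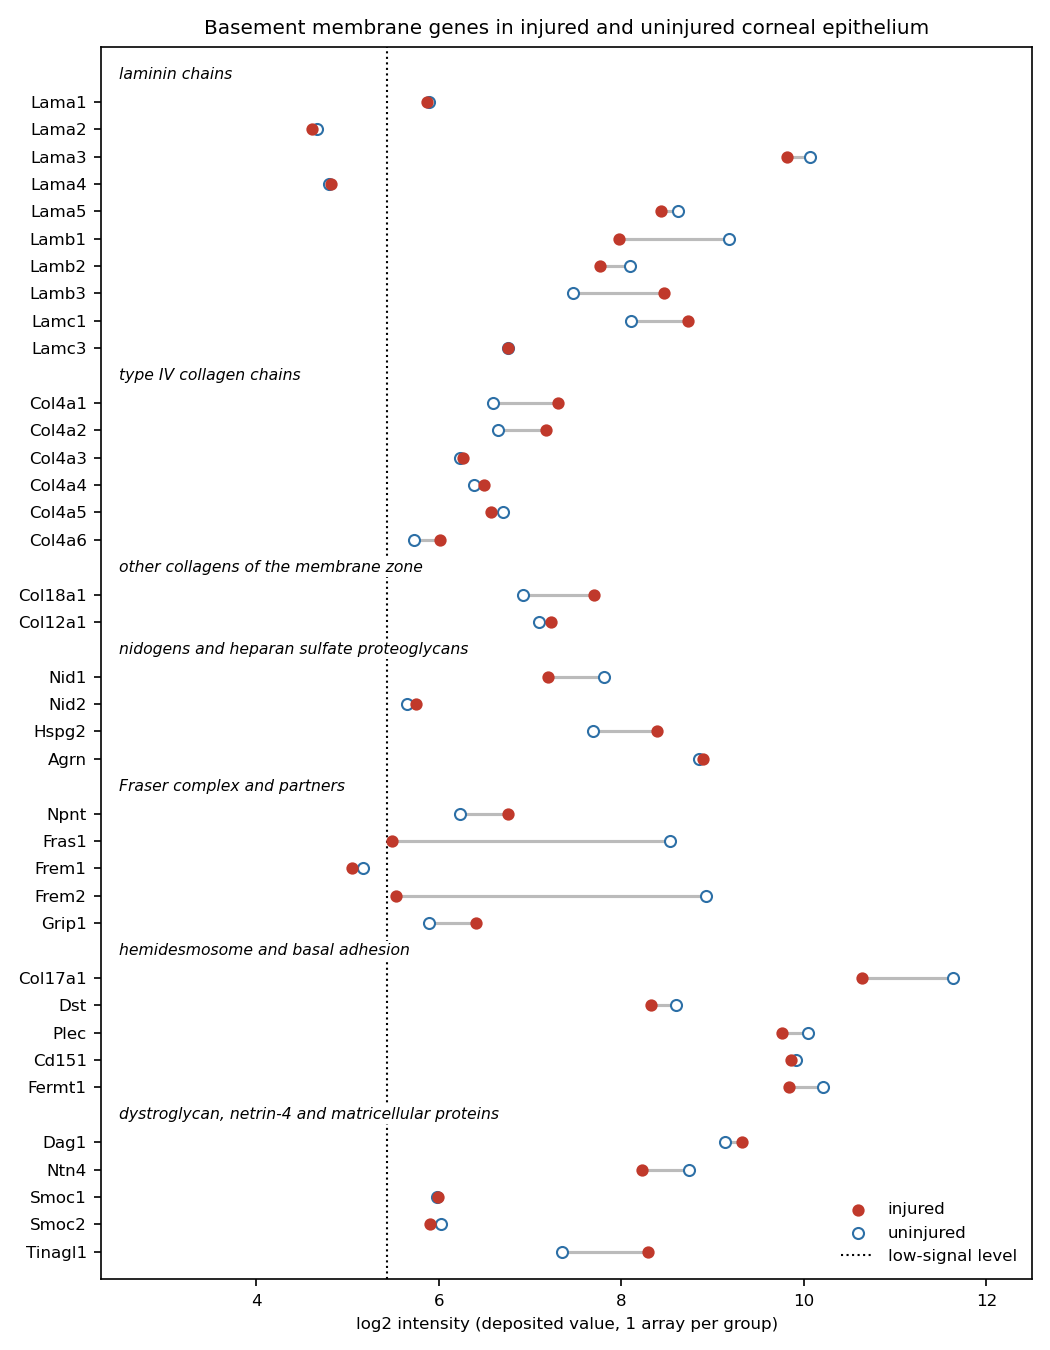
Deposited log2 intensity of the 37 genes with a row of their own, grouped by role, with a filled point for the injured and an open point for the uninjured array and a dotted line at the low-signal level of 5.44. The long bars of Fras1 and Frem2 end near that level in the injured array; levels of different genes come from different probes and are not comparable with each other.

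Frem2, which encodes a large membrane-anchored Fraser complex protein, read 5.53 in the injured array and 8.92 in the uninjured one. The difference was -3.40 on the log2 scale, or 10.6-fold lower, the place 34 from the bottom among the 19512 genes. Fras1, which encodes the partner protein that depends on Frem2 for its place in the membrane, read 5.49 in the injured array and 8.54 in the uninjured one. It was 8.29-fold lower (-3.05), at place 50 from the bottom. At least 8-fold lower were 51 genes, 0.261% of all measured. Among genes whose brighter value lay within 0.5 of that of Frem2, 10 of 3016 were as far or farther down, Frem2 itself included. For Fras1 this held for 14 of 3555, with Fras1 itself and Frem2 included. Both injured values stand just above 5.44, the median of the table, so the size of the 2 differences is uncertain at the dim end. When 16 was added to the linear intensities before taking log2, the differences were -3.02 for Frem2 and -2.67 for Fras1.

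The other genes around the Fraser complex were less than 2-fold apart or too dim to judge. Frem1, the secreted member of the complex, read 5.05 in the injured array and 5.17 in the uninjured one, below the low-signal level in both, so these arrays give no usable difference for it. Grip1, a scaffold with PDZ domains that brings Fras1 to the basal surface, read 6.40 in the injured array and 5.89 in the uninjured one, a difference of 0.51. Npnt, nephronectin, a matrix ligand of integrin alpha 8 beta 1, read 6.76 in the injured array and 6.23 in the uninjured one, a difference of 0.53. The receptor gene Itga8 was below the low-signal level, at 4.67 injured and 4.63 uninjured.

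The sequences just before the start sites of the genes that lay farthest apart are shown so that the start regions can be set beside the differences. RefSeq start regions of GRCm38.p6 were in the table used here for 26 of the 38 genes, and Fras1 was not among them. Each line gives the 250 bases before the start farthest upstream, 5′ to 3′ along the gene, with matches of 4 motifs on either strand in capitals.
Frem2, chr3:53657356-53657605, minus strand: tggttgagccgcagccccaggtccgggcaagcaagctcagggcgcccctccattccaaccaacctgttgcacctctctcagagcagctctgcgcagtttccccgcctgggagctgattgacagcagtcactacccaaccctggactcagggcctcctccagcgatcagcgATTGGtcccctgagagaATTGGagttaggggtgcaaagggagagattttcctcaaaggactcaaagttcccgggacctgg
Lamb1, chr12:31265043-31265292, plus strand: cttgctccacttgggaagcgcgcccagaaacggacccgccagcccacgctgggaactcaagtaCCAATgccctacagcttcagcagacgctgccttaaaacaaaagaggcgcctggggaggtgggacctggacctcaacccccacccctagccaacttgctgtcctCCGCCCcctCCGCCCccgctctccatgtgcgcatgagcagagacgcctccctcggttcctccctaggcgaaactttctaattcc
Lamb3, chr1:193301744-193301993, plus strand: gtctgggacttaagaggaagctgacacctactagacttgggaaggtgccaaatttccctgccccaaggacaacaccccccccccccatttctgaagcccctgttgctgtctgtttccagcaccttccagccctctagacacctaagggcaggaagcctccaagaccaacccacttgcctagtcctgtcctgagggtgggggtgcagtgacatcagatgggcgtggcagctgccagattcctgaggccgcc
Col17a1, chr19:47692043-47692292, minus strand: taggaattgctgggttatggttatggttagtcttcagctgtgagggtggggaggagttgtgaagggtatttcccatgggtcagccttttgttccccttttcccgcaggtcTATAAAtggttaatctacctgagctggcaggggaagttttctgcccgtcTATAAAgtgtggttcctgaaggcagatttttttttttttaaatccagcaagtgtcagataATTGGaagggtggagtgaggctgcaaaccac
The AP-1 site was searched as TGANTCA. The GC box was searched as GGGCGG. The CCAAT box was searched by its own letters and the TATA box as TATAAA, and no match overlapped another in these windows. The Frem2 window had 2 CCAAT matches, both read on the strand opposite to the gene. They began 80 and 63 bases before the start, and 33.9% of all 32851 windows of this length hold at least 1 such match. The Lamb1 window had 2 GC box matches, at 84 and 75 bases, and 1 CCAAT match at 187 bases, and 32.7% of all windows hold a GC box. The Col17a1 window had 2 TATAAA matches, at 140 and 91 bases, which 12.4% of windows hold at least once, and 1 CCAAT match at 31 bases. In the Lamb3 window, and for TGANTCA in all 4 windows, these letters were not found, and 6.75% of all windows hold TGANTCA. A match is a description of letters and was not tested as a binding site.

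**Figure D2:**
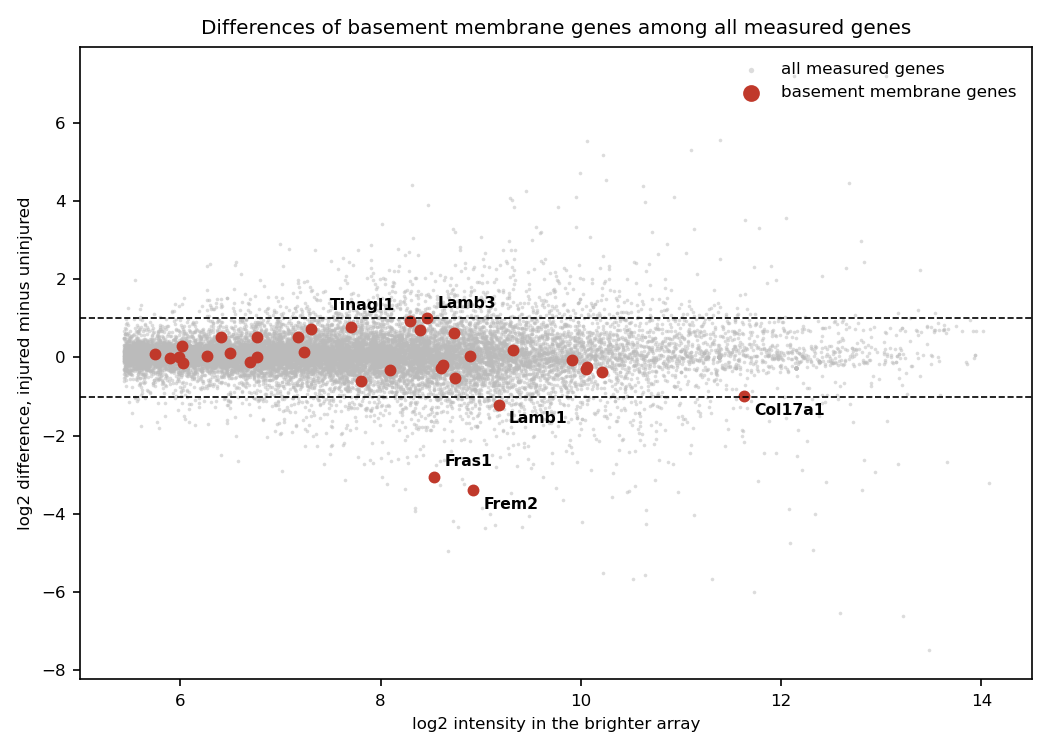
Log2 difference (injured minus uninjured) against the log2 intensity in the brighter array for 19512 genes in grey and the 34 measured basement membrane genes in red, with dashed lines at 2-fold. Frem2, Fras1 and Lamb1 lie below the lower line, Col17a1 lies at it, and Lamb3 and Tinagl1 lie just under the upper line.

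Among the laminins, which are trimers of an alpha, a beta and a gamma chain, the chain genes Lamb1 and Lamb3 lay farthest apart between the arrays, in opposite directions. Lamb1, the beta 1 chain of many laminins, read 7.97 in the injured array and 9.18 in the uninjured one, 2.31-fold lower (-1.20). Lamb3, the beta 3 chain found in the laminin of hemidesmosomes, read 8.47 in the injured array and 7.47 in the uninjured one. Its difference of 1.00 is 0.998 before rounding, 1.997-fold, and so just misses the call. The Lamb3 difference lay 2.20 above the Lamb1 difference on the log2 scale, a 4.60-fold change in the ratio of these probe signals that does not depend on a constant scaling of either array. Lamb2, the beta 2 chain, read 7.76 in the injured array and 8.09 in the uninjured one, a difference of -0.33.

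The alpha and gamma chains differed less than Lamb1 and Lamb3. Lama3, the alpha chain that pairs with Lamb3, read 9.82 in the injured array and 10.06 in the uninjured one (-0.25), so the Lamb3 difference lay 1.24 above that of its own partner. Lamc1, the gamma 1 chain shared by most laminins with Lamb1 or Lamb2, read 8.73 in the injured array and 8.11 in the uninjured one, a difference of 0.62. It therefore lay 1.83 above Lamb1. Lama5, the main alpha chain of mature epithelial membranes, read 8.44 in the injured array and 8.62 in the uninjured one (-0.18). Lama1, an alpha chain of early embryonic membranes, read 5.87 and 5.90 (-0.02) in the injured and uninjured arrays, and Lamc3 read 6.76 in both. Lama2, an alpha chain of muscle and nerve, and Lama4, one of vessel walls, were below the low-signal level in both arrays, at 4.61 and 4.82 injured against 4.67 and 4.79 uninjured. Over the 8 measured chains the median difference was -0.10.

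Type IV collagen, the network-forming collagen, showed small differences that were largest in the pair Col4a1 and Col4a2. These 2 chains assemble together and are found in nearly all basement membranes. Col4a1 read 7.31 in the injured array and 6.59 in the uninjured one (0.72, 1.64-fold), and Col4a2 read 7.18 in the injured array and 6.65 in the uninjured one (0.53, 1.44-fold). Their differences lay 0.19 apart. Col4a3 and Col4a4, chains of a more restricted network, differed by 0.04 and 0.11, and Col4a5 and Col4a6, whose chains join in epithelial membranes, by -0.13 and 0.28. Levels of these 4 lay between 6.02 and 6.57 in the injured and between 5.73 and 6.70 in the uninjured array. None of the 6 chains was 2-fold apart, and their median difference was 0.20.

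Of the other collagens, Col18a1, a heparan sulfate collagen whose end fragment is endostatin, read 7.71 in the injured array and 6.92 in the uninjured one, a difference of 0.79. Col12a1, a collagen that binds to fibrils beneath the membrane, read 7.23 in the injured array and 7.10 in the uninjured one (0.13). The row shared by Col7a1 and Mir711 read 7.56 in the injured array and 7.53 in the uninjured one, and the part of either gene in it cannot be told apart.

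The cross-linkers of the membrane split. Hspg2, perlecan, a heparan sulfate proteoglycan, read 8.39 in the injured array and 7.69 in the uninjured one, a difference of 0.71. Nid1, nidogen 1, which bridges laminin gamma 1 and type IV collagen, read 7.20 in the injured array and 7.81 in the uninjured one (-0.61). The gap between the Hspg2 and Nid1 differences was 1.31. Nid2 read 5.75 in the injured array and 5.65 in the uninjured one (0.09), close to the low-signal level. Agrn, agrin, a proteoglycan that links laminin to dystroglycan, read 8.89 in the injured array and 8.85 in the uninjured one (0.05).

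All 5 hemidesmosome and basal adhesion genes had negative differences, from -0.06 to -0.99, and 0 were 2-fold apart. Over all genes 40.8% of differences were negative. The hemidesmosome integrin genes Itga6 and Itgb4 were not among these 5 and had positive differences. Col17a1, the transmembrane collagen of hemidesmosomes, read 10.64 in the injured array and 11.63 in the uninjured one. Its difference of -0.99 (1.99-fold) stood just short of the call and passed it, at -1.003 and -1.06, with equal array medians and with quantile normalization. The plakins, which anchor keratin filaments, differed little: Plec, plectin, by -0.29 (9.76 injured, 10.05 uninjured) and Dst by -0.27 (8.33 injured, 8.60 uninjured). Dst also codes for forms of nerve and muscle that 1 row cannot separate. Fermt1, kindlin 1, an activator of integrins, read 9.83 in the injured array and 10.21 in the uninjured one (-0.38), and the tetraspanin Cd151, which binds laminin receptors, 9.85 and 9.91 (-0.06) in the same order.

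The genes of the hemidesmosome integrin had positive differences, unlike Col17a1. Itga6 read 11.26 in the injured array and 10.92 in the uninjured one (0.34), and Itgb4 read 10.81 in the injured array and 10.41 in the uninjured one (0.40). The mean of these 2 differences lay 1.36 above that of Col17a1. Of the keratins that hemidesmosomes hold, Krt5 differed by -0.16 while Krt14 read 13.38 in the injured array and 11.16 in the uninjured one, 2.23 higher.

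Of the remaining genes Tinagl1, a matricellular protein of basement membranes, was farthest apart, at 8.29 in the injured array and 7.35 in the uninjured one (0.94, 1.91-fold). Ntn4, a netrin that binds laminin chains and interferes with their network, read 8.23 in the injured array and 8.74 in the uninjured one (-0.51). Dag1, dystroglycan, a laminin receptor, read 9.33 in the injured array and 9.14 in the uninjured one (0.19). Smoc1 and Smoc2, calcium-binding proteins of the membrane, differed by 0.01 and -0.13, with values between 5.90 and 6.03 in both arrays.

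**Figure D3:**
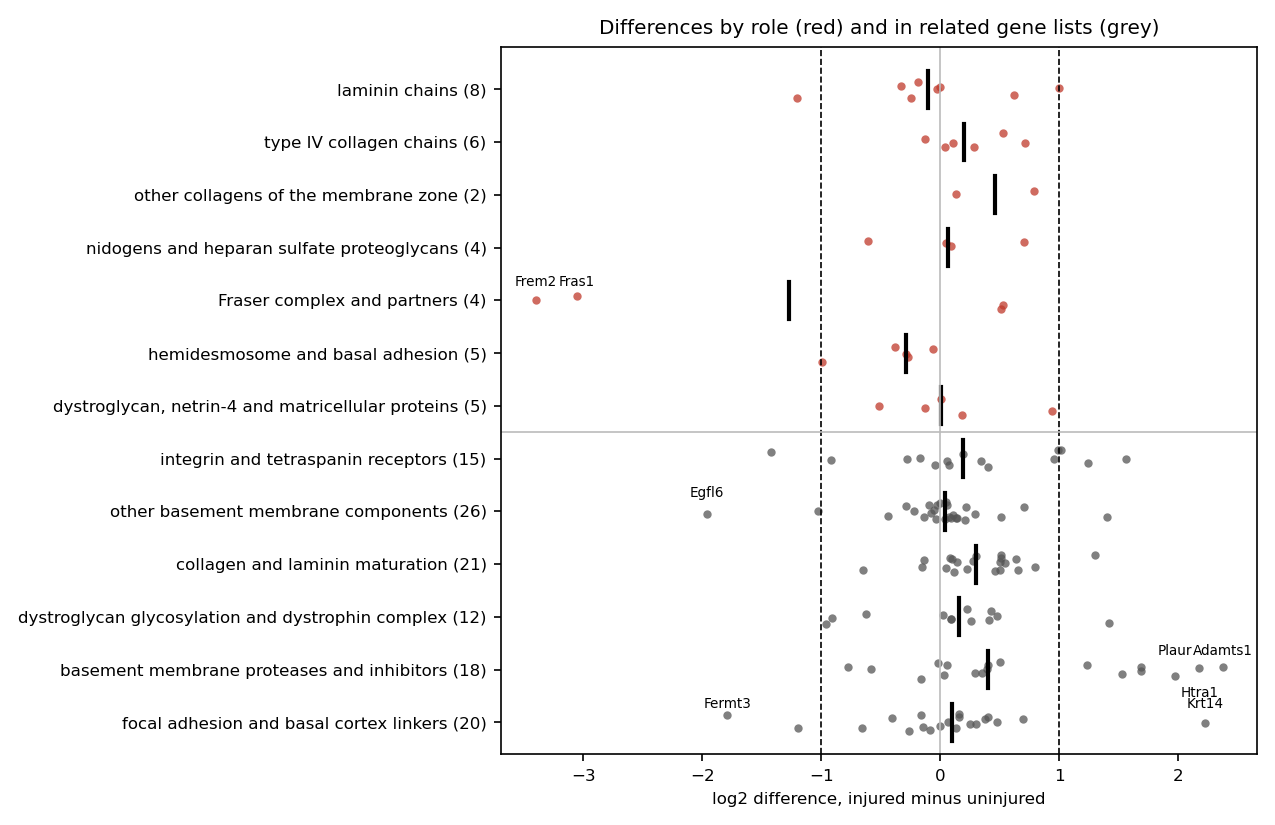
Log2 difference (injured minus uninjured) of each measured gene, by role for the basement membrane genes in red and for 6 related lists in grey, with the number measured in brackets, black bars at the medians and dashed lines at 2-fold. Fras1 and Frem2 stand alone below -3, and the protease list reaches farthest to the right.

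At a threshold below 2-fold a larger share of these genes than of all genes lay apart. At 1.5-fold or more, 6 of 34 were higher, where 11.1% of all genes were, and 5 of 34 lower, where 8.76% of all genes were. Together these 11 are 32.4% of the 34 genes, and 19.9% of all genes lay as far apart. The 6 higher genes were Lamb3, Tinagl1, Col18a1, Col4a1, Hspg2 and Lamc1, and the 5 lower genes were Frem2, Fras1, Lamb1, Col17a1 and Nid1. Bright genes differ more often than dim ones on these arrays. Among genes whose brighter value was at or above the 75th percentile of the table, 6.93, all 11 were kept, 47.8% of 23 basement membrane genes, against 27.9% of 12056 genes. At 2-fold the shares among these bright genes were 13.0% of the 23 and 11.9% of the 12056. These are shares of 1 pair of arrays, for a list chosen with earlier results of these data known. No test of the list was run.

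**Figure D4:**
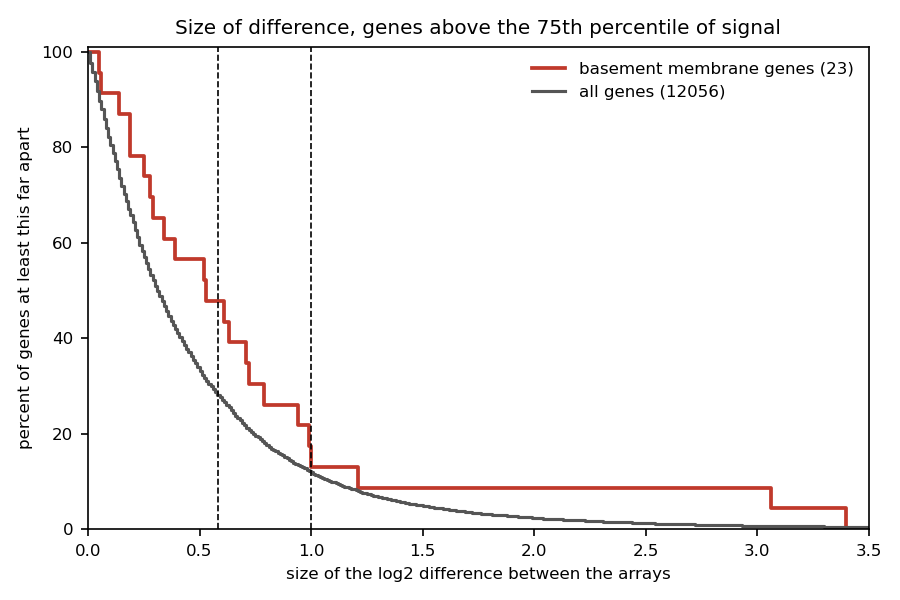
Percent of genes whose log2 values lie at least a given distance apart, for 23 basement membrane genes in red and 12056 genes in grey, all with a brighter value at or above 6.93, with dashed lines at 1.5-fold and 2-fold. At 1.5-fold the red line stands at 47.8% and the grey line at 27.9%, and at 2-fold at 13.0% and 11.9%.

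The only error these arrays offer is the disagreement between rows of 1 gene. Over 542 rows of 256 genes the SD of the difference within a gene was 0.242 on the log2 scale. Of the 34 genes 21 (61.8%) had a difference larger than this, as had 46.6% of all genes, and 13 did not, among them Agrn, Cd151, Dag1, Lama5, Col4a3, Col4a4 and Col4a5. The 2 shares are not matched for brightness and were not tested. This SD covers probes within 2 arrays and says nothing about the spread between mice. Each of the 37 genes has 1 row, so no second row could be set against it.

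Genes that act with the membrane were described by counts at 2-fold. Among 15 measured integrin and tetraspanin receptor genes, 3 were higher and 1 lower, with a median of 0.19. Over all genes 4.14% were higher and 3.92% lower. The tetraspanins Cd63 (1.56) and Cd81 (1.24) and the fibronectin receptor chain Itga5 (1.02) were higher and the tetraspanin Cd82 (-1.42) lower. Itga3 and Itgb1, which form a laminin receptor outside hemidesmosomes, differed by 0.99 and 0.96. Itgb5 ran the other way, at 8.29 in the injured array and 9.20 in the uninjured one (-0.92).

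Among 21 measured genes of collagen and laminin maturation 1 was higher and 0 lower, with 18 of 21 differences positive, as were 58.4% over all genes, and a median of 0.30. The call of 1 gene is near the background of 4.14%. The 1 was Pxdn, peroxidasin, which forms the cross-links of type IV collagen, at 7.16 in the injured array and 5.86 in the uninjured one (1.30). The collagen chaperone Serpinh1 differed by 0.51, the prolyl hydroxylase subunits P4ha1 and P4hb by 0.64 and 0.65, and Bmp1, which trims laminin and collagen precursors, by 0.54. P3h2, a prolyl hydroxylase of type IV collagen, ran the other way (-0.64).

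Of 26 other basement membrane components 1 was higher and 2 lower, where 4.14% and 3.92% of all genes were, with a median of 0.04. Egfl6, a matrix protein with EGF-like repeats, read 5.39 in the injured array and 7.35 in the uninjured one (-1.96), and its injured value was below the low-signal level. Tgfbi, an abundant corneal matrix protein, read 12.04 in the injured array and 13.06 in the uninjured one (-1.02). Col8a1, a collagen of the membrane under the corneal endothelium, was higher (1.40), with an uninjured value of 4.95 below the low-signal level.

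The list with most calls was that of proteases and inhibitors, with 7 of 18 higher, 0 lower and a median of 0.40. It was chosen with earlier results of these data known, so its count is a description and not a test. Of all genes 4.14% were higher and 3.92% lower. The 7 higher genes were Adamts1 (2.37), the serine protease Htra1 (2.18), the urokinase receptor Plaur (1.97), the inhibitor Timp1 (1.69), urokinase Plau (1.69), the tissue activator Plat (1.52) and the stromelysin Mmp10 (1.23). The uninjured values of Adamts1 (5.35) and Mmp10 (5.07) were below the low-signal level, so both entered the list through the injured array and the size of their differences is uncertain. The gelatinase genes Mmp2 and Mmp9, whose products cut type IV collagen, differed by -0.16 and 0.40. Of the 18 differences 4 were negative, with Timp3 (-0.78) and Ctsl (-0.58) the lowest. In the list of dystroglycan glycosylation and the dystrophin complex, Sgcb, a sarcoglycan, was the 1 of 12 called, and was higher (1.42). That count is near the 8.06% of all genes that lay 2-fold apart. Utrn, utrophin, which ties dystroglycan to actin, differed by -0.96. Among 20 genes of focal adhesions and the basal cortex Krt14 was higher, and Fermt3 (-1.79) and the keratin Krt15 (-1.20) were lower. The shares over all genes were again 4.14% higher and 3.92% lower.

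Cells of the stroma, vessels and nerves also make basement membrane, so their markers stand beside these results. Over all measured genes 8.06% lay 2-fold apart. Of 11 keratocyte and stromal markers 7 were measured, with median levels of 6.35 injured and 6.51 uninjured and a median difference of -0.12. Of these Dcn was lower (-1.31), with an injured value of 4.77 below the low-signal level. The defining markers Kera (3.52 injured, 3.55 uninjured) and Lum (3.99 injured, 4.31 uninjured) were below the low-signal level in both arrays. Of 8 vascular endothelial markers 4 were measured and 0 were 2-fold apart, with median levels of 6.02 injured and 6.11 uninjured. The vessel markers Pecam1, Kdr, Emcn and Tek were below the low-signal level in both arrays. Of 6 pericyte and smooth muscle markers 5 were measured and Acta2 alone was called (2.25). The 4 measured Schwann cell and nerve markers and 6 of 7 measured leukocyte markers were less than 2-fold apart, the integrin Itgam being lower (-1.55). Itgam read 8.72 in the injured array and 10.26 in the uninjured one. The median levels of the 7 leukocyte markers were 6.01 injured and 5.82 uninjured. The leukocyte marker Ptprc (4.39 injured, 4.29 uninjured) was below the low-signal level in both arrays. Cd68, of the same list, was bright in both (9.12 injured, 8.92 uninjured). Among 4 corneal endothelial markers Col8a1 was higher and Alcam lower (-1.22), and among 5 conjunctival markers Krt8 (1.52) and Krt19 (1.11) were higher and Muc5ac lower (-1.26). The bright conjunctival markers Krt13 (11.77 injured, 12.06 uninjured) and Krt4 (11.98 injured, 11.85 uninjured) differed by -0.29 and 0.14. Among 6 corneal epithelial markers Krt12 (-3.22), Aldh3a1 (-2.68) and Pax6 (-1.32) were lower, and Trp63, a factor of basal cells, differed by -0.36. Cdh1, the 1 of the 6 with a positive difference, read 11.82 in the injured array and 11.46 in the uninjured one (0.35). The part of all these markers in the differences of the basement membrane genes was not tested.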

How the data were processed

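Per the labels, 2 µg of total RNA from each sample was amplified, labelled with biotin and hybridised to a microarray. Agilent Feature Extraction 9.1 is named in the submitters' processing notes, although biotin labels and transcript-cluster row names are not typical of Agilent arrays, so its role here is unclear. How background was corrected, arrays were normalized and which build was used is not stated in the sources used here. The authors' deposited values are log2 intensities in 65952 rows. Column medians were nearly equal, so values were kept as deposited.

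Rows were named from the platform annotation, with symbols updated through the RefSeq annotation of GRCm38.p6. Of the rows 31254 carry 1 gene, 1492 several, which stayed unnamed, and 33206 are unnamed here. Kept rows had a brighter value of at least 5.44, the table's median, and the row with the highest mean stood for a gene. The call is a log2 difference of 1 or more. The number of arrays limits the precision. The members and lists were chosen with earlier results of these data known. Named are all members, up to 4 genes each way at least 2-fold apart from each related list, and Itga6, Itgb4, Krt5 and Krt14 by name, where 1 further gene fixed by name is not reported here; other genes were chosen after their values were seen. Alternatives covered scaling, filter, row choice, threshold and an added constant (Python 3.11.15, pandas 2.3.3, NumPy 2.4.6, statsmodels 0.14.6).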

Additional observations from a re-analysis of the deposited data

How the results depend on the processing

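No paired analysis was possible because each group has 1 array and no difference rests on a test, and for the same reason no replicate could be left out. The counts of 0 higher and 3 lower basement membrane genes were unchanged with equal 75th percentiles, loess, every low-signal filter tried and an added constant of 16. Other choices of row cannot change them, since each of these genes has 1 row. With quantile normalization 1 gene, Lamb3, was higher and 4 were lower, and with equal medians 4 were lower, Col17a1 being the addition in both. At 1.5-fold 6 were higher and 5 lower, against 2173 higher and 1710 lower among all genes, and at 4-fold 0 were higher and 2 lower, against 138 and 152 among all genes, fewer because the threshold is higher. The median difference of the basement membrane genes lay between -0.18, with bright genes alone, and 0.0036. Over the alternatives Frem2 ranged from -3.42 to -3.02, Fras1 from -3.07 to -2.67, Lamb1 from -1.22 to -1.16, Lamb3 from 0.94 to 1.00 and Col17a1 from -1.06 to -0.98. None of the 3 called basement membrane genes changed sign under these alternatives. Values near 5.44 are limited by signal over background, for which no detection call was used here.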
